A study of Mus musculus with 26 samples.

Results

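Ribosomal protein genes encode the proteins of the cytosolic ribosome. In cultures of mouse intestinal epithelium (organoids) given arachidonic acid (AA) or prostaglandin E2 (PGE2), the messenger RNAs of most of the family were lower than with vehicle, in both subunits. Between 72 and 78 of 82 tested members fell in 4 comparisons with vehicle, and 49 fell with AA at day 3. Over these 5 comparisons 15.5% to 30.1% of all genes tested were called lower. Members were chosen by gene symbol alone: Rpl or Rps followed by a number and, for some, a short suffix, with Rplp0, Rplp1, Rplp2 and Rpsa, and without names that end in -ps. The rule took 86 of the 55385 gene identifiers in the count tables, 53 of the large and 33 of the small subunit. Of these, 82 passed the filter on low counts in every fit, 50 large and 32 small. The 4 that did not pass were Rpl10l with 0 counts over all 26 libraries, Rpl39l with 6, Rpl3l with 19 and Rps12l1 with 44. The label held for most members, but 4 of the 86 (Rps4l, Rps12l1, Rpl32l and Rpl6l) are annotated as processed pseudogenes in GENCODE release M21.

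Organoids were grown in Matrigel from crypts of C57BL/6 mice. All groups shared a medium with EGF, Noggin, R-spondin, the GSK3 inhibitor CHIR-99021 and the ROCK inhibitor Y-27632, per the labels' protocols. Each of days 1 and 3 had 3 libraries per group, for vehicle, for AA at 25 µM and for PGE2 at 50 nM. Day 6 had 4 libraries of vehicle and 4 of AA at 25 µM. Sources differ on the prostaglandin: the protocol has PGE2 and the design text a dimethyl form of it, so "PGE2" stands for whichever was used. AA is a fatty acid from which cells make prostaglandins, PGE2 among them. The sources used here do not give the age or number of mice, nor whether replicates were separate cultures. Each p-value therefore covers only the variation among the libraries at hand.

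Reads were counted per gene and are given below as CPM, the usual depth-scaled count, after normalisation with the TMM method (trimmed mean of M values). Libraries of days 1 and 3 held 1.01e+07 to 1.46e+07 counts and those of day 6 held 1.61e+07 to 1.98e+07. The 5 epithelial markers Epcam, Krt8, Krt18, Cdh1 and Vil1 were detected in every library. The highest level of any of the 7 fibroblast and smooth muscle markers in any library was 0.762 CPM, and that of any of the 7 immune markers was 1.29 CPM. Day 6 libraries held at most 0.266% mitochondrial ribosomal RNA, against 6.74% to 10.3% at days 1 and 3, so levels at day 6 are not tested against earlier days. Library 3 of vehicle at day 1, library 3 of AA at day 3 and library 4 of vehicle at day 6 held the highest value of their group for 78, 79 and 74 of the 82 members tested. Library 2 of vehicle at day 3 and library 2 of vehicle at day 6 held the lowest for 77 and 74. Medians and named values that move by much without one of these libraries are given both ways below.

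The cytosolic ribosome joins amino acids into protein. Its small subunit reads the messenger RNA, and its large subunit forms the peptide bond. One copy of nearly every ribosomal protein goes into each ribosome, and the messages for them are among the most abundant in a growing cell. Many begin with a C followed by an unbroken run of pyrimidines, the terminal oligopyrimidine (TOP) tract, through which growth signals passing the kinase mTOR control their translation and stability. Stem and progenitor cells at the base of the intestinal crypt divide fast and need many ribosomes, and their output changes as cells differentiate.

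Start-site sequences of some members are shown because members moved together and the tract is the best known feature their messages share. Most of the lines shown hold a tract, so they are no sample of the members. None was found in the windows of other members named below, among them Rpl36a, Rplp0, Rps12, Rpsa, Rpl5, Rpl11, Rpl10, Rps3, Rps19, Rpl37a, Rpl13 and Rpl7l1. Each line gives 20 bases before and 20 bases from the start annotated by RefSeq, on build GRCm38.p6 and on the gene's own strand. Capitals mark a C followed by at least 4 bases that are C or T, searched on that strand from 5 bases before to 5 bases after the start.
Rps6 (chr4:86857348-86857387, minus strand): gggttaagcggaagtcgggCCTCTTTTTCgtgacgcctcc
Rps27 (chr3:90213629-90213668, minus strand): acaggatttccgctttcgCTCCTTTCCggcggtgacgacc
Rpl12 (chr2:32961692-32961731, plus strand): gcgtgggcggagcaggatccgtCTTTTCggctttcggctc
Rplp2 (chr7:141447631-141447670, plus strand): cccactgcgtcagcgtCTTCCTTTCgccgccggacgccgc
Rpl35 (chr2:39005112-39005151, minus strand): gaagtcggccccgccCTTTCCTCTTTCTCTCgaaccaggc
Rpl27a (chr7:109519175-109519214, plus strand): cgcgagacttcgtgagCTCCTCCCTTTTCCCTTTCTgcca
Rpl22l1 (chr3:28805488-28805527, plus strand): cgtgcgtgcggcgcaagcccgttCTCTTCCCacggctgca
Rps27l (chr9:66946066-66946105, plus strand): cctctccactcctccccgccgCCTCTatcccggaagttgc
Rpl22 (chr4:152324416-152324455, plus strand): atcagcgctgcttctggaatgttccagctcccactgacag
Rps4x (chrX:102189372-102189411, minus strand): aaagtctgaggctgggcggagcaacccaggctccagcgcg
The RefSeq table matched 63 of the 86 members by symbol. A tract as defined above was found in 30 of the 63 (47.6%), 18 of 40 large subunit genes (45.0%) and 12 of 23 small subunit genes (52.2%), against 21.2% of the 27025 genes in the table. By window, 42.7% of 75 member windows held it, against 18.3% of 32851 windows. The marked tract ran for 20 bases in Rpl27a and 16 in Rpl35, and for 5 in Rps27l, at 1 of its 2 annotated starts. In Rpl35 the mark begins at the edge of the bases searched, and the run of pyrimidines extends further upstream. Where no tract is marked, as for Rpl22 and Rps4x, no such run begins within the 5 bases searched on each side of the start. Runs of pyrimidines elsewhere in a printed line were not searched. Of 60 matched and tested members, the 30 with and the 30 without a tract found this way had like median changes. These medians were -0.29 and -0.27 on the log2 scale for AA at day 1, and -0.47 and -0.47 for PGE2 at day 3. Some unmarked windows, as for Rps25 and Rpl4, hold runs of pyrimidines outside the bases searched. The split thus depends on where RefSeq places the start. Members with a tract may lie on both sides, so it cannot tell whether a tract bears on the change.

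As a share of all counts, the 86 genes took 4.04, 4.12 and 4.72% in the 3 vehicle libraries of day 1. They took 3.51, 3.51 and 3.45% with AA and 3.07, 2.95 and 3.12% with PGE2 on that day. The 3 groups did not overlap, with PGE2 lowest and vehicle highest. At day 3 the shares were 4.78, 4.32 and 4.87% with vehicle, 3.75, 3.66 and 4.33% with AA and 3.22, 3.40 and 3.26% with PGE2. PGE2 was again below both other groups, while library 3 of AA lay just above the lowest vehicle library. At day 6 they were 6.58, 6.34, 6.82 and 7.85% with vehicle and 5.44, 5.40, 5.29 and 5.30% with AA, with no overlap. The group mean was 18.7% lower with AA and 29.1% lower with PGE2 at day 1, 16.0% and 29.3% lower at day 3, and 22.3% lower with AA at day 6. No p is given for a sum over members. The counts of large over small subunit genes stood at 1.35 to 1.42 in every library of days 1 and 3 and at 1.31 to 1.36 at day 6. Within this narrow range the groups of day 1 did not overlap, with 1.367 to 1.377 for vehicle, 1.383 to 1.391 for AA and 1.396 to 1.415 for PGE2. At day 3 PGE2 (1.373 to 1.393) lay above vehicle (1.349 to 1.3635), while AA overlapped vehicle. The 2 groups of day 6 overlapped. The ratio was not tested.

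**Figure D1:**
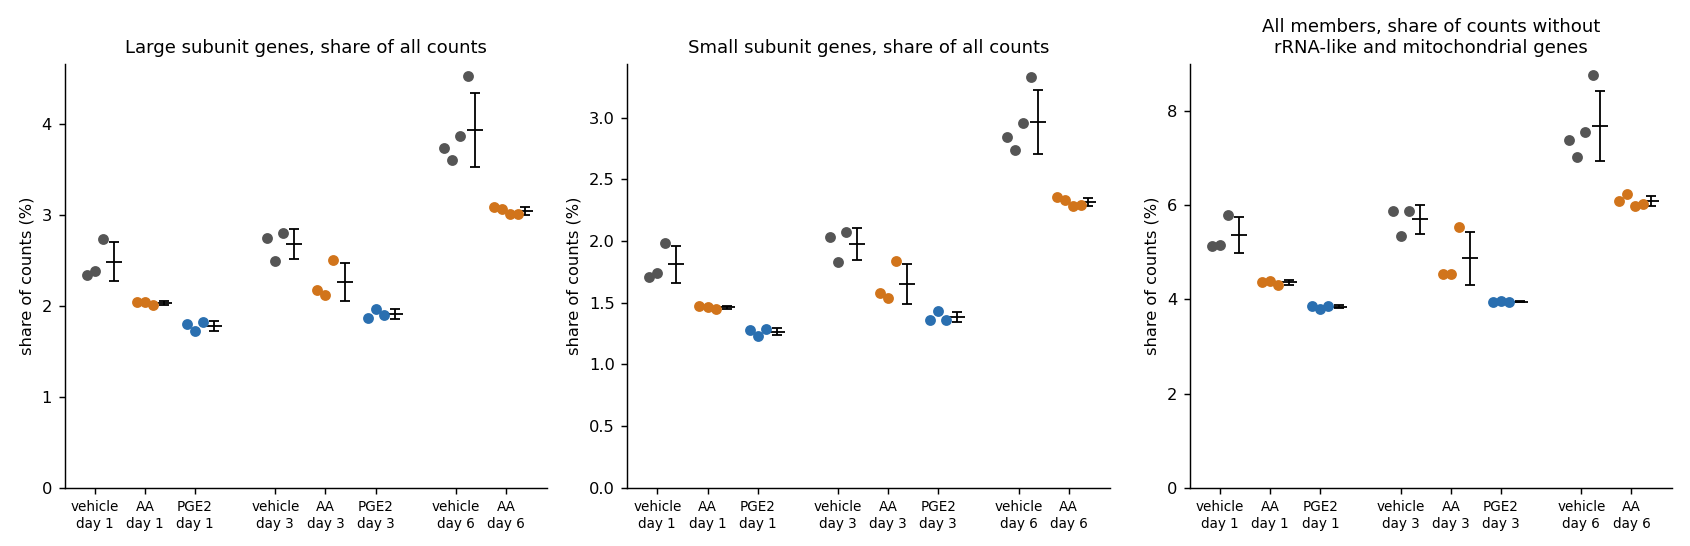
Share of counts (%) taken by the large subunit genes (left), the small subunit genes (middle) and all members after rRNA-like and mitochondrial genes were left out of the total (right). Each point is 1 library, and bars give the mean and SD of the group. Vehicle lies above AA at every day except for library 3 of AA at day 3, and PGE2 is lowest at days 1 and 3.

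In bulk RNA, fewer cells of a type and less RNA per cell cannot be told apart, and a share of counts does not give RNA per cell. Marker sums moved with the groups. A sum is led by its most abundant markers. Among goblet cell markers Fcgbp reached 2044 CPM and Clca1 49.3, and among stem cell markers Olfm4 reached 1189 and Ascl2 18.3. The sums below therefore need not show how each marker moved. The summed level of 6 stem cell markers was 710 to 737 CPM with vehicle, 306 to 323 with AA and 171 to 183 with PGE2 at day 1. At day 3 it was 2027 to 2138, 637 to 682 and 301 to 338 CPM. At day 6 it was 718 to 899 CPM with vehicle and 500 to 739 with AA. The 3 groups did not overlap for stem cell markers at days 1 and 3, with PGE2 lowest, and the 2 groups of day 6 did overlap. The 6 proliferation markers summed to 2473 to 2494, 2243 to 2281 and 2204 to 2267 CPM at day 1, to 1920 to 2023, 1656 to 1800 and 1389 to 1424 at day 3, and to 2389 to 2467 and 2036 to 2137 at day 6. The 7 fetal-like markers summed to 396 to 437, 1538 to 1603 and 2795 to 2845 CPM with vehicle, AA and PGE2 at day 1, to 536 to 658, 1374 to 1643 and 2630 to 2677 at day 3, and to 62.0 to 96.2 and 139 to 215 with vehicle and AA at day 6. The 8 enterocyte markers summed to 968 to 990.4, 1247 to 1369 and 1011 to 1052 CPM at day 1, to 1053 to 1089, 2110 to 2376 and 1967 to 2242 at day 3, and to 1023 to 1378 and 2215 to 2878 at day 6. Enterocyte and fetal-like sums were above every vehicle library of the same day in every AA and PGE2 library. The 6 Paneth cell markers summed to 695 to 828, 433 to 479 and 621 to 737 CPM at day 1, to 2114 to 2428, 714 to 903 and 684 to 728 at day 3, and to 4684 to 5759 and 2002 to 2568 at day 6. The 6 goblet cell markers summed to 715 to 733, 470.1 to 506 and 842 to 909.6 CPM at day 1, to 1087 to 1144, 685 to 803 and 2214 to 2244 at day 3, and to 2365 to 2953 and 2896 to 3139 at day 6. Enteroendocrine markers, 6 in number, summed to 45.3 to 47.9, 60.7 to 74.4 and 78.4 to 85.7 CPM at day 1, to 130.1 to 146, 48.4 to 58.7 and 33.4 to 46.9 at day 3, and to 342 to 412 and 244 to 259 at day 6. Tuft cell markers, 5 in number, summed to 3.00 to 4.69, 6.55 to 6.85 and 12.6 to 14.6 CPM at day 1. They summed to 5.66 to 6.70, 8.73 to 9.74 and 23.3 to 23.8 at day 3, and to 6.05 to 9.04 and 3.36 to 4.55 at day 6. The part of these marker changes in the ribosomal protein result was not tested.

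At day 1 with AA, 73 of the 82 members fell and 0 rose (edgeR's quasi-likelihood test, Benjamini-Hochberg adjusted p under 0.05 over 14850 genes), against 22.2% of all genes tested called lower and 19.5% called higher. The fall took in 45 of 50 large and 28 of 32 small subunit genes. The median log2 change was -0.28 for the large and -0.30 for the small subunit, against -0.03 for all genes tested. In 77 members every AA library lay below every vehicle library, against 29.0% of all genes. Rps20, a protein of the small subunit head, stood at 666, 669.8 and 778 CPM with vehicle and 546, 533 and 509.8 with AA. All 3 AA libraries were below all 3 vehicle libraries, and the log2 change was -0.41 ± 0.07 (SE, n = 3 per group, edgeR adjusted p = 1.9e-05). Rpl36a, of the large subunit, went from 136, 135 and 153 to 110.3, 109 and 104 CPM, also without overlap (log2 -0.39 ± 0.07, edgeR adjusted p = 6e-05). Rpl12, part of the stalk base, went from 744, 759 and 870.0 to 621, 614 and 598 CPM, and Rpl36 from 285, 295 and 339 to 236, 242 and 232 CPM. Both fell by like amounts, with log2 changes of -0.37 ± 0.07 and -0.37 ± 0.07. The 9 members that did not pass were Rps2, Rpl13, Rps27l, Rps10, Rpl7l1, Rps4l, Rpl24, Rpl32l and Rpl6l. At an unadjusted p under 0.05, edgeR also gave 0 rises, as did DESeq2 after adjustment, here and in the other comparisons with vehicle for which 0 rises are given. Without library 3 of vehicle, 59 members fell and the median over members was -0.21 in place of -0.29.

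With PGE2 at day 1, 75 members fell, 46 large and 29 small, and 0 rose, against 28.9% of all genes called lower and 27.0% called higher. This comparison shares its vehicle libraries with the AA comparison of the same day. The median log2 change was -0.41 for the large and -0.44 for the small subunit, with -0.02 over all genes. Groups did not overlap for 78 members, against 32.5% of all genes. Rps20 stood at 442, 432 and 440.5 CPM, below every vehicle and every AA library, with a log2 change of -0.69 ± 0.07 (SE, n = 3 per group, edgeR adjusted p = 2.8e-09). Rps12, a small subunit protein, was at 805, 779 and 952 CPM with vehicle and 553, 537 and 552 with PGE2, again without overlap (log2 -0.63 ± 0.07). Rpl22l1, a close relative of Rpl22, fell from 161, 157 and 191 to 111, 102 and 114 CPM (log2 -0.64 ± 0.07), and Rpl12 fell to 536, 524 and 526 CPM (log2 -0.58 ± 0.07). The 7 members that did not pass were Rps2, Rpl13, Rps27l, Rpl24, Rps4l, Rpl6l and Rpl32l. Without library 3 of vehicle the median over members was -0.36 in place of -0.43.

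At day 3 with AA fewer members passed. 49 fell, 25 large and 24 small, and 1 rose, against 20.1% of all genes called lower and 21.2% called higher. The median log2 change was -0.19 for the large and -0.20 for the small subunit, with -0.03 over all genes. Groups did not overlap for 10 of the members that were lower, below the 22.4% of all genes that separated in that direction. Rpl12 stood at 930.5, 825 and 938 CPM with vehicle and 647, 663 and 821 with AA. Its first 2 AA libraries were well below vehicle and the third just below, with a log2 change of -0.34 ± 0.07 (SE, n = 3 per group, edgeR adjusted p = 0.00045). Groups did not overlap either for Rpl22, with 211, 199 and 221 CPM against 162, 163 and 178 (log2 -0.33 ± 0.06), and Rps20, with 782, 697 and 806 against 572, 566 and 688 CPM (log2 -0.32 ± 0.07). Rps4x, the X-linked small subunit gene, stood at 1246, 1096 and 1253 CPM with vehicle and 949, 920.0 and 1078 with AA (log2 -0.29 ± 0.06). Library 3 of AA was the highest of its group for each of these 4. The median spread within a group, as a coefficient of variation over 79 members above 10 CPM, was 10.7% for AA at day 3, 9.38% and 7.17% for vehicle at days 1 and 3, 1.93% for AA and 2.43% for PGE2 at day 1, and 1.60% for PGE2 at day 3. At day 6 it was 12.7% for vehicle and 2.78% for AA, over 78 members as for PGE2 at day 3. Without library 3 of AA 69 members fell and the median was -0.28 in place of -0.19. With 1 vehicle library left out, 17, 20 or 58 members fell (library 3, 1 or 2), and 24 fell without library 1 or without library 2 of AA.

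With PGE2 at day 3, 78 of 82 members fell, 48 large and 30 small, and 1 rose, against 30.1% of all genes called lower and 28.9% called higher. The median log2 change was -0.47 for the large and -0.49 for the small subunit, against -0.04 for all genes. Groups did not overlap for 78 members that were lower, against 31.9% of all genes. Rpl12 was at 534, 529.5 and 544 CPM, far below the vehicle libraries, with a log2 change of -0.74 ± 0.07 (SE, n = 3 per group, edgeR adjusted p = 3.1e-09). Rps20 was at 466, 483 and 478 CPM (log2 -0.68 ± 0.07), with no overlap. The 2 members with the largest fitted falls, Rpl6l (log2 -1.28 ± 0.48) and Rpl32l (-1.15 ± 0.41), are annotated pseudogenes, which lay with PGE2 at 0.246, 0.361 and 0.271 CPM for Rpl6l and 0.575, 0.433 and 0.677 CPM for Rpl32l. They rest on few reads. Without library 2 of vehicle neither passed, with log2 changes of -1.22 for Rpl6l and -0.67 for Rpl32l. Rpl6l also did not pass without library 3 of vehicle or library 1 or 3 of PGE2, nor Rpl32l without library 2 of PGE2. No other member passed a change of 2-fold. The 3 that did not pass were Rpl24, Rpl7l1 and Rps27l, and the member that rose was Rps4l.

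At day 6, 72 members fell with AA and 0 rose, against 15.5% of all 14663 genes called lower and 15.3% called higher. The fall took in 43 of 50 large and 29 of 32 small subunit genes, with medians of -0.37 and -0.35 against -0.01 for all genes. Groups did not overlap for 70 members, against 16.8% of all genes. Rps29, a small subunit protein, stood at 405, 384, 455 and 739 CPM with vehicle and 352, 364, 343 and 314 with AA. The groups did not overlap, but the fourth vehicle library was far above the other 3, and the log2 change of -0.53 ± 0.17 (SE, n = 4 per group) had an edgeR adjusted p of 0.03. Rpl37a was alike, at 424, 424, 458 and 695 CPM with vehicle and 349, 365, 343 and 333 with AA (log2 -0.53 ± 0.13, edgeR adjusted p = 0.011). Without the fourth vehicle library the changes were -0.27 for Rps29 and -0.33 for Rpl37a, and both still passed. Without library 1, 3 or 4 of AA, Rps29 did not pass (edgeR adjusted p from 0.056 to 0.084). Rplp1 fell by 0.48 on the log2 scale (edgeR adjusted p = 0.007). Rpl36a was at 225, 215, 239 and 327 CPM with vehicle and 190.0, 183, 176 and 172 with AA (log2 -0.48 ± 0.11). Rps20, which led at day 1, was at 1083, 967, 1083 and 1262 CPM and 824, 822, 779 and 796 with AA, so that even the lowest vehicle library was above all 4 AA libraries (log2 -0.45 ± 0.07, edgeR adjusted p = 0.00095). Without the fourth vehicle library 72 members again fell, and the median over members was -0.27 in place of -0.36. The 10 that did not pass were Rps10, Rpl39, Rps4l, Rpl13a, Rpl7l1, Rpl24, Rpl22l1, Rps27l, Rpl32l and Rpl6l. Across the 3 AA comparisons, which share no library, 47 members fell at every day, 23 large and 24 small, against 5.29% of the 13949 genes tested in both tables. At both days 1 and 6, 70 fell, against 8.44% of those genes.

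**Figure D2:**
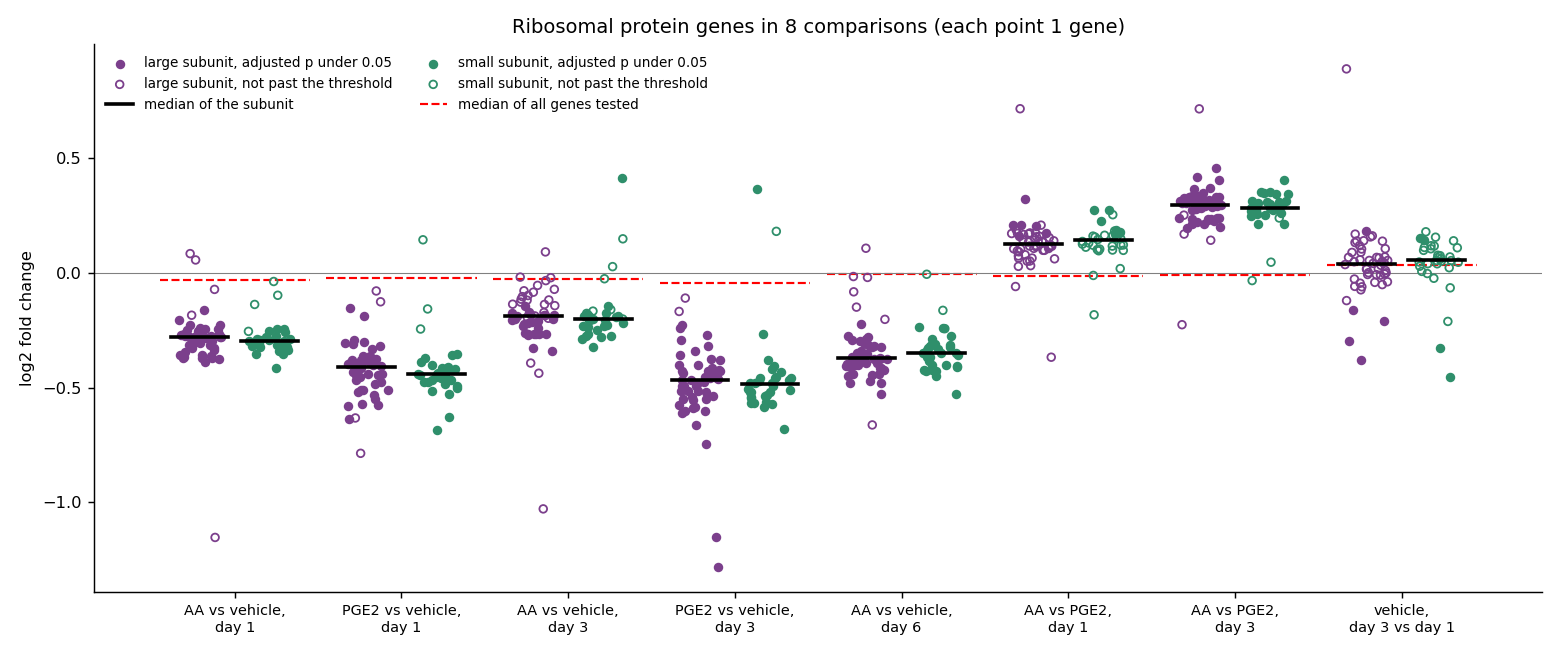
Log2 fold change (vertical axis) of each of the 82 tested members in 8 comparisons, large subunit in purple and small subunit in green, with filled points past the threshold. Black lines are the subunit medians and dashed red lines the median of all genes tested. Members form a narrow band below 0 with AA and PGE2, from a median of -0.19 (AA, day 3) to -0.48 (PGE2, day 3), and the few points far from the band are mostly genes of low count or named paralogs.

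AA and PGE2 were then set against each other. At day 3, 74 members were higher with AA than with PGE2, 45 large and 29 small, and 0 lower, against 18.1% of all genes called higher and 20.3% called lower. Groups did not overlap for 76 members, against 22.4% of all genes. The medians were 0.30 and 0.28 against -0.01 for all genes. Rpl36 stood at 271, 255 and 335 CPM with AA and 212, 215 and 217 with PGE2. Every AA library was higher, with a log2 difference of 0.42 ± 0.07 (SE, n = 3 per group, edgeR adjusted p = 0.00013). The other named members were Rpl13 (0.46 ± 0.16), Rpl12 (0.41 ± 0.07) and Rps2 (0.41 ± 0.10). Without library 3 of AA, 68 members were higher and the median over members was 0.24 in place of 0.29. Rpl13 then no longer passed (log2 0.25, edgeR adjusted p = 0.12), nor did it without any 1 library of PGE2, and Rps2 passed at 0.26. At day 1, 12 members were higher with AA, 6 of each subunit, and 0 lower, against 11.3% of all genes called higher and 16.5% called lower. That share of members is near the background, while the medians were 0.13 and 0.14 against -0.01. In 68 members every AA library was above every PGE2 library at day 1, against 20.8% of all genes. The 4 named members there were Rpl22l1 (134, 139.9 and 137 CPM with AA, 111, 102 and 114 with PGE2, log2 0.33 ± 0.07), Rps12 (0.28 ± 0.07), Rps20 (0.27 ± 0.07) and Rps27a (0.22 ± 0.06). The count at day 1 was 61 under total-count scaling and 5 to 8 when 1 of the 6 libraries was left out. AA and PGE2 were given at different molar doses, so these differences are between the treatments as given.

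With vehicle alone, few members passed between day 1 and day 3. 3 rose and 6 fell, against 19.8% of all genes called higher and 20.5% lower, and the medians of 0.04 and 0.06 lay beside 0.04 for all genes. Without library 3 of day 1 they were 0.11 and 0.13, against 0.04 for all genes. Under total-count scaling the split was 22 higher and 4 lower. The falls with no overlap were led by Rps4l (log2 -0.46 ± 0.10), Rpl13a (-0.38 ± 0.07), Rps27l (-0.32 ± 0.09) and Rpl7l1 (-0.29 ± 0.06). Rps27l did not pass without library 2 of day 3 (log2 -0.24) and was at -0.21 without library 3 of day 1. Of these 4 members, 3 carry the names of paralogs rather than core ribosomal proteins. Rpl13a, a core gene also known for an extraribosomal role in silencing inflammatory messages, was at 59.4, 52.0 and 63.6 CPM at day 1 and 44.6, 38.9 and 51.1 at day 3. Leaving out 1 vehicle library moved the count of rises from 3 to between 0 and 20. It was 20 without library 3 of day 1 and 17 without library 2 of day 3.

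Few members passed the test of a difference between days in the response to treatment. The AA response of day 3 less that of day 1 passed for 1 member in the higher direction, Rps4l, against 10% of all genes, and for 0 members in the lower one, against 7.95%. The median difference was 0.11 for the large and 0.09 for the small subunit, and -0.01 and -0.02 without library 3 of AA at day 3. Over all members it was 0.10, and 0.03 without library 3 of vehicle at day 1 or 0.04 without library 2 of vehicle at day 3. For PGE2, 0 members passed in either direction by edgeR (1 higher and 1 lower at an unadjusted p under 0.05, and 1 higher and 0 lower by DESeq2), against 12.6% of all genes higher and 11.6% lower, with medians of -0.05 and -0.04. Without library 3 of vehicle at day 1 these medians were -0.12 and -0.12, and over all members it was -0.11 without library 2 of vehicle at day 3. Under total-count scaling the medians of the large and small subunit were 0.004 and 0.006, against 0.03 for all genes. The AA response of day 6 less that of day 3 passed for 3 members, all lower, against 10.4% of all genes lower and 8.78% higher. These were Rps4l (log2 -0.59 ± 0.18), Rpl18 (-0.33 ± 0.11) and Rpl27 (-0.27 ± 0.10), with edgeR adjusted p of 0.023, 0.043 and 0.049. The median was -0.20 for the large and -0.16 for the small subunit, and over all members -0.19, which became -0.09 without library 3 of AA at day 3, -0.10 without library 4 of vehicle at day 6 and -0.14 without library 2 of vehicle at day 3. None of the 3 passed without library 3 of AA at day 3, without library 2 of vehicle at day 3 or without library 4 of vehicle at day 6. The joint fit spans tables of different library content.

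By role, the first set is the acidic stalk, which recruits elongation factors. Rplp1 had the highest mean level of any member per kilobase of annotated exon, 1849 CPM per kb at days 1 and 3 and 2762 at day 6, and Rplp0 the second highest at days 1 and 3, 1081. That length joins all annotated exons, for Rpl41 1168 bases against 437 in its chosen GENCODE transcript, so such ranks depend on the annotation. Rplp0 stood at 1853, 1872 and 2183 CPM with vehicle at day 1, 1606, 1646 and 1609 with AA and 1494, 1469 and 1519 with PGE2. The 3 groups did not overlap, and Rplp0 fell with AA (log2 -0.28 ± 0.06) and with PGE2 (-0.40 ± 0.06). Rplp0 is widely used as a reference gene in PCR, and it fell in all 5 comparisons with vehicle, by 0.20 on the log2 scale with AA at day 3 and by 0.42 with PGE2. At day 6 it was at 2299, 2153, 2279 and 2836 CPM with vehicle and 1827, 1856, 1859 and 1871 with AA (log2 -0.37 ± 0.08). Rplp1 and Rplp2 fell too at day 1 with AA, with log2 changes of -0.34 ± 0.09 and -0.33 ± 0.06. At day 3 with AA Rplp1 did not pass (log2 -0.19 ± 0.09, edgeR adjusted p = 0.093), while Rplp2 did (-0.18 ± 0.06). Neither Rplp0 nor Rplp2 passed at day 3 with AA without library 1 or 3 of vehicle or library 1 or 2 of AA. Rplp2 fell at day 6 by 0.37, and by 0.24 without library 4 of vehicle.

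Rps6 is the substrate of the S6 kinases that act downstream of mTOR. It was at 344, 345 and 394 CPM with vehicle at day 1, 286, 290.4 and 283 with AA and 264, 262 and 259 with PGE2, with no overlap between the groups. It fell in all 5 comparisons with vehicle, from -0.25 ± 0.06 with AA at day 3 to -0.51 ± 0.06 with PGE2 at day 3. Rpsa, which also acts as a laminin receptor, went from 1455, 1322 and 1419 CPM with vehicle at day 3 to 960.0, 987 and 981 with PGE2 (log2 -0.52 ± 0.07). With AA it stood at 1143, 1166 and 1432 CPM, where library 3 overlapped vehicle and the change did not pass (-0.17 ± 0.07, edgeR adjusted p = 0.051). Rps27a, made as a fusion to ubiquitin, was at 755, 728, 796 and 839.9 CPM with vehicle and 646, 643, 618 and 610.3 with AA at day 6 (log2 -0.31 ± 0.06), without overlap. Rps19, the gene most often mutated in Diamond-Blackfan anaemia, and Rps3, at the messenger RNA entry of the small subunit, each fell in all 5 comparisons, though Rps3 did not pass with AA at day 3 without library 1 or 3 of vehicle or library 1 or 2 of AA. Their log2 changes with PGE2 at day 3 were -0.51 ± 0.07 and -0.48 ± 0.07. Rpl10, which is X-linked and completes the peptidyl transferase centre, fell by 0.31 with AA and 0.45 with PGE2 at day 1 on the log2 scale.

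Rpl5 and Rpl11 bind the p53 inhibitor Mdm2 when ribosome assembly is disturbed. Rpl5 was at 511, 439.9 and 521 CPM with vehicle, 398, 401 and 447 with AA and 334, 330.2 and 351 with PGE2 at day 3. PGE2 lay below both other groups while library 3 of AA overlapped vehicle, and the log2 changes were -0.24 ± 0.06 and -0.54 ± 0.06. Rpl11 changed by -0.17 ± 0.07 and -0.46 ± 0.07, and both genes fell in all 5 comparisons with vehicle. For AA at day 3, Rpl11 did not pass without library 1 or 3 of vehicle or library 1 or 2 of AA, and its change was -0.27 without library 3 of AA. At day 6 it was -0.35, and -0.23 without library 4 of vehicle. Of 16 genes of the p53 pathway, 4 rose and 4 fell with AA at day 1, 11 rose and 1 fell at day 3, and 8 rose and 1 fell at day 6. The shares of all genes called higher and lower were 19.5% and 22.2%, 21.2% and 20.1%, and 15.3% and 15.5%, so that 4 and 4 of 16 at day 1 are near the background. With PGE2 10 rose and 3 fell at day 1 and 14 rose and 2 fell at day 3, with a median of 0.74 there, against 27.0% and 28.9% of all genes called higher and lower at day 1 and 28.9% and 30.1% at day 3. Mdm2 rose with PGE2 at day 1 by 0.95 ± 0.05 on the log2 scale (edgeR adjusted p = 3.9e-17), and the cell cycle inhibitor Cdkn1a rose with AA at day 3 by 0.67 ± 0.06. Whether the p53 pathway genes and the falls of Rpl5 and Rpl11 are linked was not tested.

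Several core genes have a named paralog. Rps27l is a near copy of Rps27 and a known p53 target. Their coding sequences have 252 bases each and match at 76.2% of aligned positions. The first 90 coding bases are shown because the reads of the 2 genes have to be told apart by such differences. Capitals mark the 24 positions at which they differ, counted from GENCODE release M21 transcripts.
Rps27: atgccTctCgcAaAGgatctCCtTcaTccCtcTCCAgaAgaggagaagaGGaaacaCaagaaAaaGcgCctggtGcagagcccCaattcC
Rps27l: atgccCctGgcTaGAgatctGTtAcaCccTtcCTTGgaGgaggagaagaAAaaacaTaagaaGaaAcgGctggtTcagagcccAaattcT
Rps27 stood at 366, 319 and 374 CPM with vehicle, 277, 271 and 324 with AA and 239, 242 and 237 with PGE2 at day 3. PGE2 was below all other libraries, library 3 of AA overlapped vehicle, and Rps27 fell with both treatments (log2 -0.28 ± 0.07 and -0.56 ± 0.07). Rps27l stood at 155, 130.3 and 166 CPM with vehicle, 158, 153 and 188 with AA and 174, 169 and 168 with PGE2, with every PGE2 library above every vehicle library. Its changes of 0.15 ± 0.10 and 0.18 ± 0.10 did not pass (edgeR adjusted p = 0.23 and 0.11), and it passed in none of the 5 comparisons with vehicle. Only Rpl24 of the other members shared this in both PGE2 comparisons.

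Rpl7l1 is a nuclear relative of Rpl7, with 54.4% identity of the coding sequence. Rpl7 fell with PGE2 at day 3 (-0.27 ± 0.06), less than the median of the large subunit. Rpl7l1 was at 136, 116 and 137 CPM with vehicle and 125, 117 and 119.8 with PGE2, groups that overlapped (log2 -0.11 ± 0.06, edgeR adjusted p = 0.15). It passed with PGE2 at day 1 (-0.15 ± 0.06), though not without library 3 of vehicle (-0.09) or without any 1 PGE2 library, and in none of the AA comparisons. Rpl22l1 (67.5% identity with Rpl22) fell with both treatments at days 1 and 3. For AA at day 3 it did not pass without library 1 or 3 of vehicle or library 1 or 2 of AA. At day 6 it stood at 198, 191, 216 and 163 CPM with vehicle and 207, 180.4, 184 and 188 with AA. The groups overlapped and the change was -0.02 ± 0.08, while Rpl22 fell from 413, 373, 417 and 447 to 348, 318, 324 and 329.9 CPM (-0.32 ± 0.06). The difference between the 2 paralogs was not tested. Rpl3l, Rpl10l and Rpl39l, whose known sites are muscle and testis, gave 19, 0 and 6 counts over the 26 libraries. For Rpl10l the limit that 0 counts allow is 3 counts over all libraries.

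Rps4l was the one member that rose with treatment. It was at 25.8, 23.8 and 21.6 CPM with vehicle, 30.2, 29.7 and 35.2 with AA and 33.8, 25.4 and 33.1 with PGE2 at day 3. Every AA library was above every vehicle library, while 1 PGE2 library fell among the vehicle values. The log2 changes were 0.41 ± 0.10 (SE, n = 3 per group, edgeR adjusted p = 0.0013) and 0.37 ± 0.10 (edgeR adjusted p = 0.0022). At day 1 it was at 31.6, 30.2 and 36.3 CPM with vehicle, 32.0, 33.3 and 30.2 with AA and 37.6, 34.6 and 36.0 with PGE2, and neither change passed (-0.04 ± 0.09 and 0.15 ± 0.09). The vehicle level itself fell from day 1 to day 3. Rps4l is annotated as a transcribed processed pseudogene, and 18% of its 50-base stretches also occur in another gene, against 72.2% for Rps4x.

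**Figure D3:**
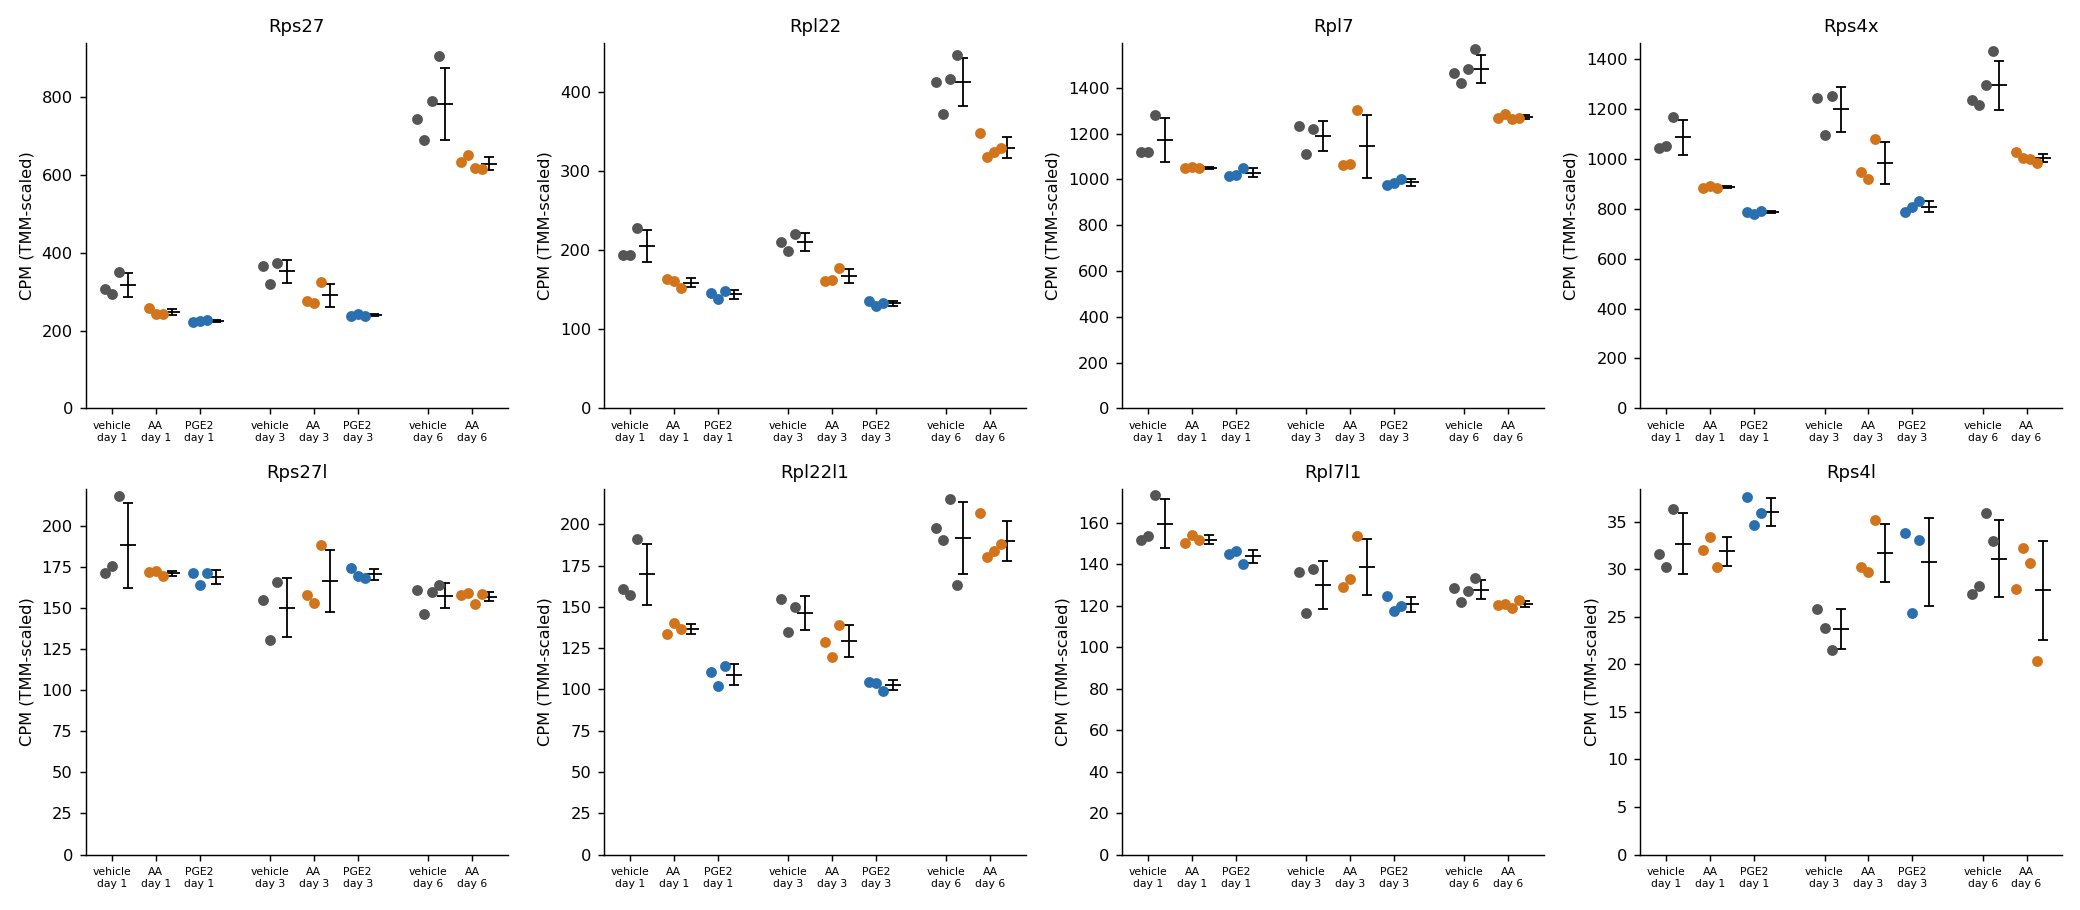
CPM after TMM scaling (vertical axis, from 0) of 4 core genes (top row) and their named relatives (bottom row), with 1 point per library and the group mean and SD beside it. The 4 core genes lie below vehicle with PGE2, whereas Rps27l and Rpl7l1 overlap vehicle with AA at every day, and the mean of Rps4l is lowest in vehicle at day 3.

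Some members share exons or sequence with other genes. Rpl24 lay at 1.00 to 3.72 CPM and Rps10 at 6.59 to 14.6 CPM, far below other core genes, and each shares exons on the same strand with a readthrough or overlapping gene (Gm28037 and RPS10-NUDT3). Rpl13a, at a mean of 46.2 CPM over days 1 and 3, also overlaps exons on the same strand, of Gm45713, Mir5121 and Snord33. In all, 27 members have such an overlap. How reads in shared exons were counted is not stated in the sources at hand, so the levels of these members are uncertain. Over all members, 53 share more than 50% of their 50-base stretches with other genes, so that their counts are uncertain by the reads near-identical copies share, and the median share is 56.5%. Their median change with PGE2 at day 3 was -0.48 (52 tested), and that of the members with under 10% shared was -0.47 (4 tested). These medians were -0.44 and -0.39 with PGE2 at day 1, and -0.35 and -0.40 with AA at day 6. With only 4 members under 10%, little can be read from them. The 300 identifiers with Rpl or Rps symbols that end in -ps held counts equal to 0.300% of those of the members. Any copies under other names are not in that figure. Rpl13 and Rps2, named here like Rpl24 and Rps10 after their values were seen, varied within groups. Rpl13 stood at 375, 415 and 303 CPM with PGE2 at day 1 and 345, 347 and 539 with AA at day 3, and had the highest coefficient of variation of members above 10 CPM in both groups. Rps2 stood at 1164, 1241 and 1066 CPM with PGE2 at day 1 and 1169, 1189.7 and 1649 with AA at day 3. Neither passed in the 2 comparisons of day 1 with vehicle, and both fell with PGE2 at day 3 (log2 -0.48 ± 0.16 and -0.38 ± 0.10).

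Scaling decides where 0 lies on the log2 axis, and a family that makes up 2.95% to 7.85% of counts can itself pull on it. The fits were therefore repeated with total counts, with DESeq2 size factors, with TMM computed without ribosomal protein genes, and with rRNA-like and mitochondrial genes left out. Under the 5 scalings the median over members ran from -0.30 to -0.26 for AA at day 1, from -0.26 to -0.17 at day 3 and from -0.37 to -0.35 at day 6. For PGE2 it ran from -0.51 to -0.42 at day 1 and from -0.51 to -0.48 at day 3. Total counts gave the lowest median in 4 of these 5 comparisons, and it also moved the median of all genes, to -0.10 for PGE2 at day 1. A scaling factor shifts all genes of a library alike, so the distance of members from the median of all genes is nearly fixed by construction and is no test of stability. It stood at -0.26 for AA at day 1, between -0.17 and -0.16 at day 3 and between -0.36 and -0.35 at day 6, and at -0.41 and near -0.43 for PGE2 at days 1 and 3. The number that fell was 69 to 74 with AA at day 1, 36 to 66 at day 3 and 72 to 73 at day 6, and with PGE2 74 to 77 at day 1 and 78 at day 3. For AA at day 3 it was 66 under total counts, 42 with DESeq2 size factors, 45 with TMM without ribosomal protein genes and 36 without rRNA-like and mitochondrial genes. Neither subunit changed direction in the comparisons with vehicle: at day 3 with AA the medians ran from -0.25 to -0.16 for the large and from -0.27 to -0.18 for the small subunit. Differences of responses depended more on the scaling. The median over members ran from 0.05 to 0.11 for AA and from -0.08 to 0.01 for PGE2, each day 3 less day 1. For AA at day 6 less day 3 it ran from -0.21 to -0.11.

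**Figure D4:**
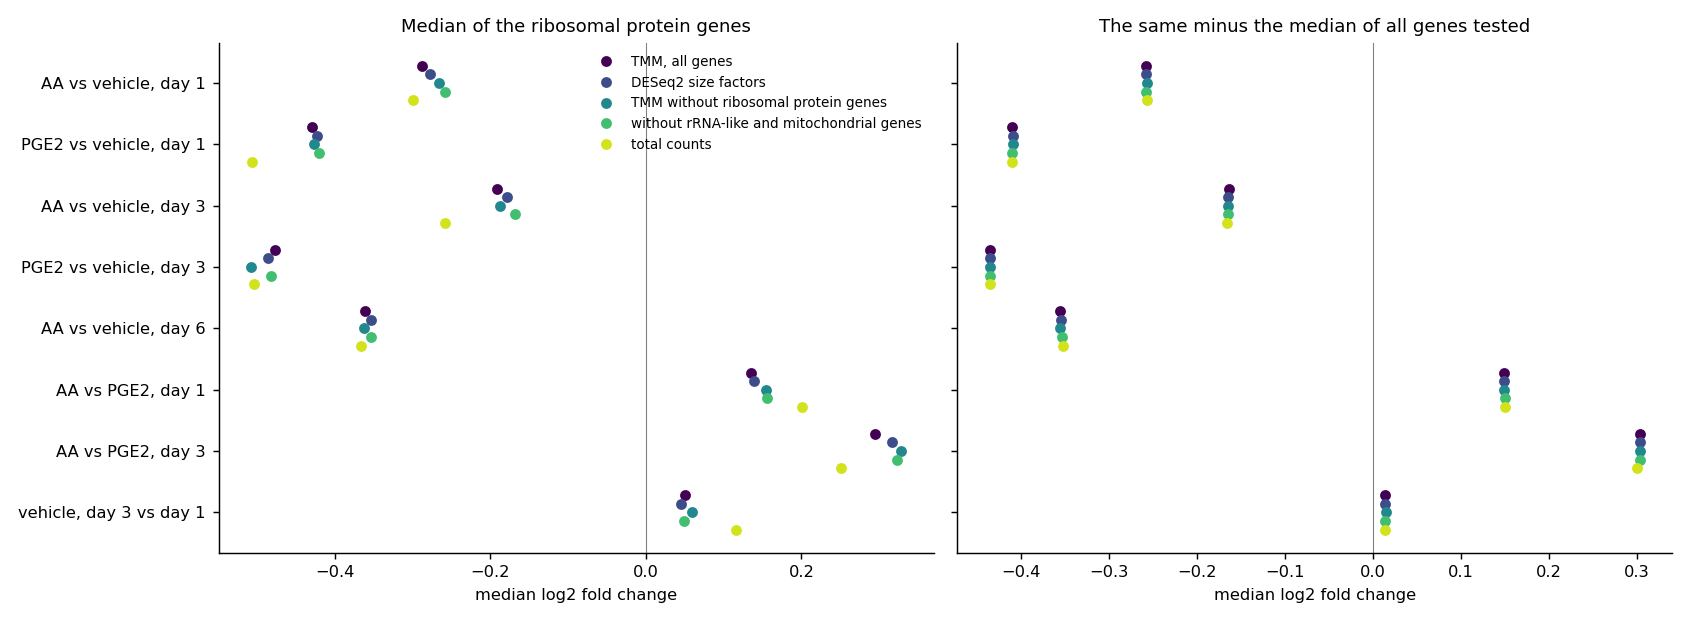
Median log2 fold change over the 82 tested members (horizontal axis) in 8 comparisons under 5 scalings, as fitted (left) and after the median of all genes tested was subtracted (right). Colours mark the scaling. The points spread on the left, most for AA at day 3 and PGE2 at day 1, and nearly coincide on the right, where subtracting the median of all genes removes a shared shift by construction.

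The rest of the translation machinery was read from other lists. The counts below are to be read against the shares of all genes called lower, which were 22.2%, 20.1% and 15.5% with AA at days 1, 3 and 6 and 28.9% and 30.1% with PGE2 at days 1 and 3. For rises these were 19.5%, 21.2% and 15.3%, and 27.0% and 28.9%. Of 21 elongation factor and other TOP genes, 18 fell with AA at day 1, 9 at day 3 and 15 at day 6, and 18 and 17 with PGE2, with 0 rises. Eef1a1, which brings aminoacyl-tRNA to the ribosome, changed by -0.30 ± 0.06 with AA at day 1 and -0.46 ± 0.06 with PGE2 at day 3. Eef1b2, its exchange factor, changed by -0.42 ± 0.07 and -0.53 ± 0.07 in the same comparisons. Of 44 ribosome assembly factors, 2 rose and 3 fell with AA at day 1, 6 rose and 5 fell at day 3, and 0 rose and 31 fell at day 6, with medians of -0.02, -0.01 and -0.24. The counts at days 1 and 3 lie below the shares of all genes in both directions, and the falls at day 6 lie above. With PGE2, 6 rose and 17 fell at day 1 and 4 rose and 25 fell at day 3. Sbds, which helps release Eif6 from new large subunits, rose with PGE2 at day 1 by 0.63 ± 0.06, and so did Eif6 (0.88 ± 0.05), while the nucleolar methyltransferase Fbl fell (-0.44 ± 0.06).

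Of 30 initiation factors, 2 rose and 5 fell with AA at day 1, 9 rose and 1 fell at day 3, and 0 rose and 11 fell at day 6. With PGE2, 6 rose and 9 fell at day 1 and 6 rose and 7 fell at day 3. Mitochondrial ribosomal proteins, which belong to a different ribosome, fell for 45 of 77 with AA at day 1 (median -0.21), 3 of 77 at day 3 (median 0.06, with 5 rises) and 44 of 77 at day 6 (median -0.21). The counts at day 3 lie below the shares of all genes in both directions. With PGE2 64 fell at day 1 and 39 at day 3, with medians of -0.34 and -0.18. Of 15 genes for RNA polymerase I and its factors, 3, 4 and 8 fell with AA at days 1, 3 and 6, with 2, 1 and 0 rises, and 4 and 5 fell with PGE2 at days 1 and 3, with 1 rise each. Only the count at day 6 is well above the share of all genes called lower. Ubtf, which opens ribosomal DNA for transcription, fell with AA at day 1 (-0.24 ± 0.04) and PGE2 at day 3 (-0.44 ± 0.04). Of 29 regulators, 4 rose and 10 fell with AA at day 1, 6 rose and 4 fell at day 3, and 4 rose and 3 fell at day 6. For PGE2, 6 rose and 9 fell at day 1 and 12 rose and 9 fell at day 3. Among these regulators, Mxd1, a repressor that competes with Myc for Max, had the smallest p in each of the 5 comparisons and rose. Its log2 changes at day 1 were 1.13 ± 0.06 with AA and 1.85 ± 0.06 with PGE2. Myc itself, named after its values were seen, changed by 0.23 ± 0.05, -0.08 ± 0.06 and -0.40 ± 0.11 with AA at days 1, 3 and 6, of which the first passed as a rise and the last as a fall (edgeR adjusted p = 0.00057 and 0.018). Whether any of these genes bears on the ribosomal protein result was not tested.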

How the data were processed

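RNA was measured in 26 libraries, 18 at days 1 and 3 and 8 at day 6. The authors deposited read counts per mouse Ensembl gene in a table for days 1 and 3 and a table for day 6, with no normalization. Per the submitters' processing notes, cutadapt, STAR, DESeq2 and limma 3.46 were named without roles, and the build named is a human one, so counts carry no genome positions here. Symbols came from GENCODE release M21, and rows without a symbol held 0.00250% of counts.

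Members and lists were chosen with earlier results of these data known. Counts were fitted with edgeR 4.0.16 in R 4.3.3 (TMM, genes kept by filterByExpr with a minimum count of 10, robust quasi-likelihood test) with a mean per group, for each table apart and, for day 6 against day 3, jointly. P-values were adjusted over all genes tested, with a threshold of 0.05. The script was tested on simulated data. Named members were, per comparison, up to 4 in each direction with the largest change among those called with no overlap of groups (threshold and size alone for differences of responses), a panel by role, the paralog pairs, and up to 3 called genes with the smallest p per list. Alternatives were other scalings, filters, DESeq2 1.42.0, a replicate block, fits on fewer groups and leaving out each library. One list of genes is not reported here.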

Additional observations from a re-analysis of the deposited data

Results flagged for a closer look

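With 4 libraries a group, day 6 allows a check for a library far from the other 3. Library 4 of vehicle was at 695 CPM for Rpl37a, with the others between 424 and 458, and at 821 CPM for Rpl5, with the next at 661. Library 2 of AA was at 1492 CPM for Rpsa, with the next at 1444. Library 3 of AA was at 153 CPM for Rps27l, with the next at 158, and at 0.0562 CPM for Rpl3l. That value is 1 read against 0 in the other 3, so the gap is fixed by the zeros and says nothing of the library. Chance sets apart about 1 in 20 such groups, and these were 5 of 80 values checked.

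The response to AA differed between days for 3 members by the test of the difference. For Rps4l it was higher at day 3 than at day 1 by 0.45 (edgeR adjusted p = 0.020) and changed by -0.59 from day 3 to day 6 (edgeR adjusted p = 0.023). For Rpl18 and Rpl27 the response of day 6 less that of day 3 was -0.33 and -0.27 (edgeR adjusted p = 0.043 and 0.049). The rise in Rps4l was no longer past the threshold without library 3 of vehicle or of AA at day 1, or without library 3 of either at day 3.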

How the results depend on the processing

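No value past its threshold changed direction under any alternative run, while the median AA response of day 3 less day 1 went from 0.10 to -0.01 without library 3 of AA at day 3. Of the counts of members called, these moved by more than 1.5 times, and the cause was not tested. Falls with AA at day 3 numbered 17 when only the contrasted groups were fitted and 17 to 69 with 1 library left out. Rises with PGE2 numbered 1 at day 1 with only the contrasted groups, and 2 at day 3 with no filter or with a replicate block. Members higher with AA than PGE2 at day 1 numbered 61 with total counts, 21 with TMM without ribosomal protein genes, 21 without rRNA-like and mitochondrial genes, 44 with no filter, 23 with a stricter filter, 25 with a replicate block, 72 with only the contrasted groups (1 was lower) and 5 to 8 with 1 library left out. Rises in vehicle from day 1 to day 3 numbered 22 with total counts, 5 with TMM without ribosomal protein genes, 1 with no filter, 17 with the stricter filter, 1 with DESeq2, 11 with the replicate block, 0 with only the contrasted groups and 0 to 20 with 1 library left out, and falls 3 to 7. For the AA response of day 3 less that of day 1, rises numbered 3 with no filter, 2 with the replicate block and 0 to 2 with 1 library left out. For PGE2, rises numbered 1 with total counts, 2 with no filter, 1 with DESeq2, 1 with the block and 0 to 1 with 1 library left out, and falls 2 with the stricter filter, 1 with only the contrasted groups and 0 to 3 with 1 library left out. For AA at day 6 less day 3, falls numbered 1 with total counts, 10 with no filter, 5 with the block and 0 to 15 with 1 library left out. Same-numbered libraries did not deviate together at days 1 and 3 (45 pairs, median r = 0.00066, from -0.11 to 0.27). At day 6 the 4 same-numbered pairs had a median r of 0.14 (from -0.11 to 0.21), against -0.05 for 12 other pairs. As not all 4 deviated together, replicate numbers were not taken as pairs. Rpl10l, Rpl39l, Rpl3l and Rps12l1 lie under what this depth can test.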
